A study of Mus musculus with 8 samples.

Results

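The 9 genes described here are Lif, Lifr, Il6st, Jak1, Jak2, Stat3, Socs2, Socs3 and Pim1, the signalling route from leukaemia inhibitory factor (LIF) to the transcription factor STAT3. They were taken by gene symbol from tables of 23845 mouse genes, and all 9 were found. The cells were mouse embryonic stem cells (mESC) at passages 5 to 10, either wild-type (WT) or METTL5 KO, lacking the methyltransferase that modifies 18S ribosomal RNA. Ribosome footprints (Ribo-seq), taken from the monoribosome fraction of sucrose gradients, and RNA (RNA-seq) were each sequenced from 2 WT and 2 KO libraries. The labels name no strain, no treatment and no number of KO clones. The replicates are called biological and their cultures are not described, so the p-values reflect no more than the scatter of these libraries. Means ± SD below are over 2 libraries per genotype, and levels are CPM, a gene's expected count scaled to the library's total, unless TPM is named.

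LIF is the cytokine that keeps mouse embryonic stem cells undifferentiated in standard culture. It joins the LIF receptor, encoded by Lifr, with the shared signalling subunit gp130, encoded by Il6st. The kinases JAK1 and JAK2 bound to these receptors then phosphorylate STAT3, which enters the nucleus and raises its target genes. Among those targets are the feedback inhibitors SOCS3 and SOCS2, members of the suppressor of cytokine signalling family, and the kinase PIM1. Side branches of the same receptor run through the phosphatase SHP2 to RAS and MAPK, and through PI3K to AKT.

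The footprint libraries held 8401463 to 11487964 counts, so that 3 counts corresponded to 0.261 to 0.357 CPM. The RNA-seq libraries held 152195 to 219567 counts, and 3 counts stood for 13.7 to 19.7 CPM. These floors cover counting error only. Footprints on Mettl5, the targeted gene, were at 41.2 and 45.9 CPM in WT and at 4.08 and 4.79 CPM in KO. In RNA-seq Mettl5 was at 397 and 601 CPM in WT and at 256 and 317 CPM in KO. Both KO libraries were lower there, by an edgeR estimate of -0.88 on the log2 scale that was not called (adjusted p = 0.126). The pluripotency markers, 8 of 8 with counts, summed to 5652 and 7371 CPM in WT and to 7208 and 7071 CPM in KO. Markers of other cell types moved with genotype. Of 14 fibroblast markers 12 were tested and 3 called higher, beside 1.83% of all tested genes, and the summed level of the 14 was 213 and 114 CPM in WT and 495 and 709 CPM in KO, with Lum, a matrix proteoglycan gene, at 0 in all 4 libraries. For 12 primitive endoderm markers, 11 tested and 4 called lower, beside 0.617% of all tested genes, it was 1648 and 1716 CPM against 879 and 1066 CPM, and for 10 trophoblast markers, 6 tested and 2 called higher, 120 and 111 CPM against 311 and 339 CPM. In these bulk samples, more cells of a type and more RNA per cell cannot be told apart, nor can footprints alone separate mRNA level from ribosomes per mRNA, and the part of these lists in the values below was not tested.

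None of the 9 genes was called in the footprint comparison of genotypes without a replicate term. A call needed an adjusted p (edgeR quasi-likelihood test, Benjamini-Hochberg over 12315 genes) below 0.05, which 2.44% of all tested genes reached. At an unadjusted p below 0.05 there were 3 of 9, Il6st, Jak2 and Stat3, beside 19.4% of tested genes. DESeq2 also called 0 of 9. With the replicate number as a block, edgeR called 3 of 9 (Il6st, Stat3 and Pim1), beside 24% of tested genes. Both KO libraries lay above both WT libraries for Lif, Il6st, Jak2 and Pim1, and below them for Lifr and Stat3. Such separation, 6 of 9 here, was found for 49.8% of all tested genes, upwards (4 of 9) for 24.3% and downwards (2 of 9) for 25.5%. The median log2 fold change of the 9 genes was -0.11, beside 0.0063 over all tested genes.

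**Figure D1:**
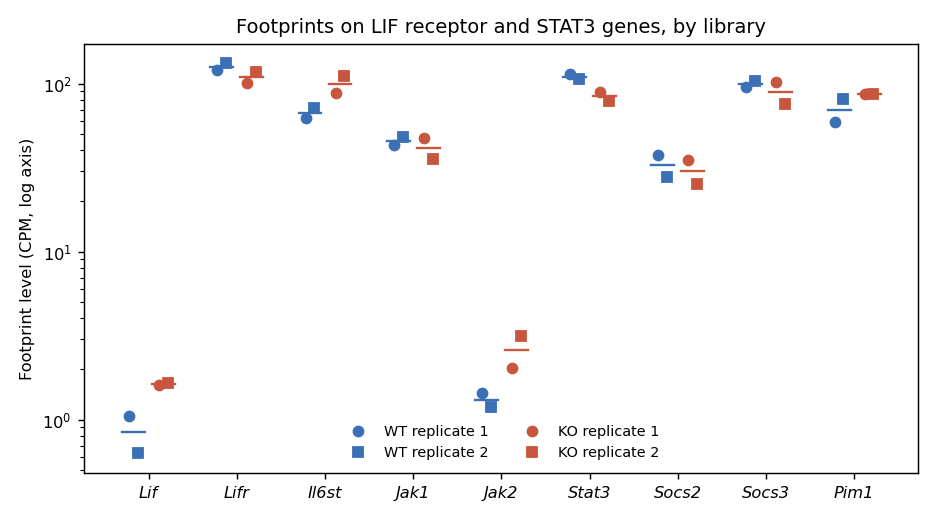
Footprint level in CPM on a log axis for the 9 genes, with circles for replicate 1, squares for replicate 2 and lines for the genotype means. Lif and Jak2 lie between 0.628 and 3.13 CPM, and the other genes between 25.3 and 132 CPM.

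Lif, the ligand, carried few footprints. Its counts were 11 and 5.28 in WT and 15 and 19 in KO, or 1.05 and 0.628 CPM against 1.61 and 1.65 CPM. Both KO libraries were higher, at counts small enough that the 95% interval of the fold spanned 0.909 to 4.18. The log2 fold change was 0.96 (SE 0.49, adjusted p = 0.325). Lif lies on chromosome 11 (GRCm38, 4257557 to 4272514, plus strand), whose tested genes had a median log2 fold change of -0.25. With each gene's chromosome median removed, the Lif value was 1.21 (adjusted p = 0.258).

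Lifr, the ligand-binding receptor chain, had the highest footprint level of the set in CPM. It stood at 120 and 132 CPM in WT and at 101 and 117 CPM in KO. The KO libraries were the lower ones, with means of 126 CPM in WT and 109 CPM in KO. The nearest WT and KO libraries, at 120 and 117 CPM, lay closer together than the WT libraries did. The log2 fold change was -0.19 (SE 0.16, adjusted p = 0.572, interval of the fold 0.678 to 1.13). It ran from -0.36 without KO replicate 2 to -0.044 without KO replicate 1.

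Il6st, the gp130 chain shared by the receptors of this cytokine family, had the smallest p of the 9 genes. Its footprints were at 62.3 and 71.4 CPM in WT and at 87.4 and 111 CPM in KO, a mean of 66.9 ± 6.45 against 99.3 ± 16.8 CPM. Every KO library was above every WT library. Il6st lies on chromosome 13 (GRCm38, 112464070 to 112510086, plus strand). The KO level was 1.51 times the WT level by the fit (95% interval 1.12 to 2.02, log2 fold change 0.59, SE 0.19), and the adjusted p was 0.137. With no filter on low counts the adjusted p was 0.0348, and over all alternatives it ran from 1.74e-05 to 0.566. The lowest of these came from the fit with the replicate block. Without KO replicate 2, the library with most Il6st footprints, the log2 fold change was 0.36 (adjusted p = 0.566).

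The receptor chains were also set against each other within each library, a comparison chosen after the values were seen. In TPM, which is per transcript length, Il6st footprints were 0.388 and 0.406 times those of Lifr in WT and 0.636 and 0.665 times in KO. In CPM the same ratio was 0.519 and 0.543 in WT and 0.870 and 0.949 in KO. These ratios do not depend on the scaling between libraries, and the genotypes were further apart than the libraries within either genotype. This is 1 of the 36 pairs that the 9 genes form, and no test is given. In TPM, 20 of the 36 ratios did not overlap between genotypes. The 36 ratios reuse the same 9 genes, and no share over other gene pairs was computed, so this count is a description. The widest log2 gap between the nearest libraries of the genotypes was 0.949, for Lif over Stat3, beside 0.646 for Lifr over Il6st. Each ratio with a wider gap than the latter held Lif or Jak2, the genes with the fewest footprint counts.

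**Figure D2:**
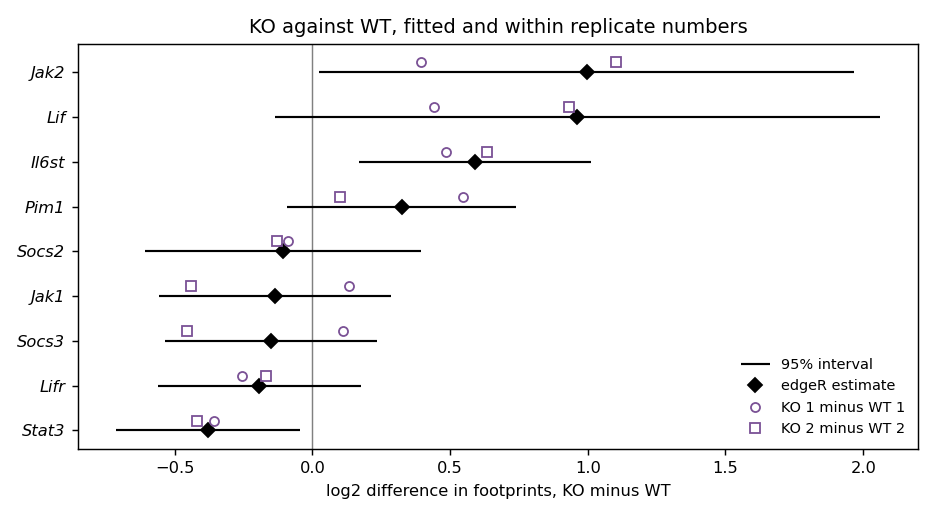
Log2 difference in footprints, KO minus WT, for each gene. Diamonds are edgeR estimates with 95% intervals, and open symbols are the differences between libraries of the same number on log2(CPM + 0.5). The intervals of Il6st, Jak2 and Stat3 leave out 0, and the open symbols of Jak1 and Socs3 lie on both sides of it.

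The deposited Lifr entry joins a pair of RefSeq transcripts, which the tables do not match to GENCODE names. In GENCODE M21, Lifr has models that end in different ways. Lifr-202 codes for 719 residues and ends before the membrane-spanning part, as the soluble LIF receptor known in the mouse does. Lifr-204 codes for 1092 residues and reaches through the membrane. Both lie on the plus strand of chromosome 15 (GRCm38) and share 14 coding exons, up to base 7184818. The last 30 shared bases, from 7184789, are printed in lower case because they show where the soluble and the membrane receptor part. The capitals mark what follows in each transcript, 8 bases from 7185067 to 7185074 that end in a stop codon, or the first 30 bases of the next exon, 7185566 to 7185595.
Lifr-202: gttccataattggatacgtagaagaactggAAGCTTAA
Lifr-204: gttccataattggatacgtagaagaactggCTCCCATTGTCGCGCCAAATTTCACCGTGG

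The length deposited for a gene is the mean of its transcripts weighted by their estimated abundance, and for Lifr it differed between assays. In footprints it was 4086 and 4087 bases in WT and 3991 and 3828 bases in KO. In the RNA-seq tables it was 2844 and 3233 bases in WT and 2922 and 2844 bases in KO. The lowest of these, 2844 bases, equals the length of Lifr-202. The footprint values are above the 3392 bases of Lifr-204, so the longer deposited transcript is not that model, which is printed for its coding end alone. The footprint lengths of both KO libraries lay below those of both WT libraries. The shares of the transcripts are not in the tables, and no test of this difference was made.

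**Figure D3:**
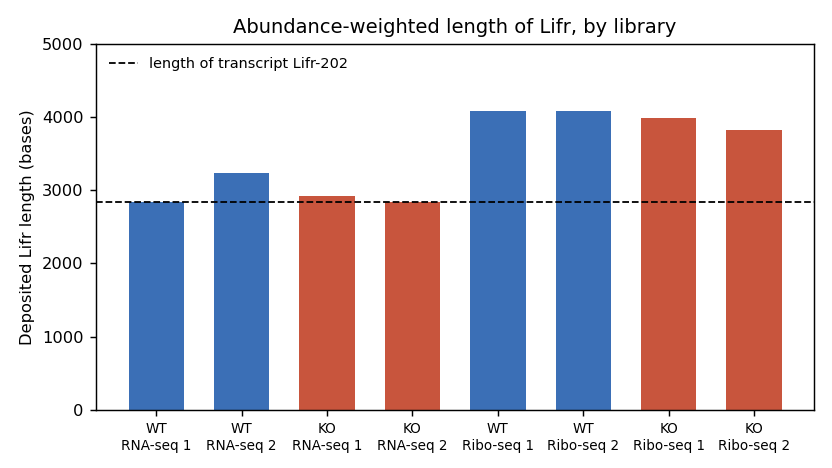
Deposited length of Lifr in bases in each of the 8 libraries, with the length of Lifr-202 as a dashed line. The RNA-seq libraries lie between 2844 and 3233 bases and the footprint libraries between 3828 and 4087.

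Of the receptor kinases, Jak1 had far more footprints than Jak2. Jak1 stood at 43.3 and 48.3 CPM in WT and at 47.5 and 35.5 CPM in KO. Its genotypes overlapped, and the log2 fold change was -0.14 (SE 0.19, adjusted p = 0.751, interval of the fold 0.680 to 1.22). Without KO replicate 2 it was 0.022. Jak2 had 15 and 10 counts in WT and 19 and 36 in KO, or 1.43 and 1.19 CPM against 2.04 and 3.13 CPM. Both KO libraries were higher for Jak2. The log2 fold change was 0.997 (SE 0.43, adjusted p = 0.247, interval of the fold 1.02 to 3.91). Jak1 lies on chromosome 4 (GRCm38, 101152367 to 101265282, minus strand) and Jak2 on chromosome 19 (29251828 to 29313080, plus strand).

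Stat3, the transcription factor of the pathway, was lower in both KO libraries. It was at 114 and 106 CPM in WT and at 88.9 and 79.1 CPM in KO, or 110 ± 5.85 against 84.0 ± 6.93 CPM. The level in KO was 0.770 times that in WT (95% interval 0.611 to 0.970, log2 fold change -0.38, SE 0.15), and the adjusted p was 0.209. Between libraries of the same number the difference was -0.36 and -0.42 on log2(CPM + 0.5). Stat3 lies on the minus strand of chromosome 11 (100885098 to 100939540), where the median log2 fold change of 999 tested genes was -0.25. With each gene's chromosome median removed, the Stat3 value was -0.12 (adjusted p = 0.732). Its exons overlap those of Stat5a, on the opposite strand, by 72 of 9527 bases, and reads from this stretch cannot be assigned, since no strand setting is given.

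Both feedback inhibitors had overlapping genotypes. Socs3, which binds gp130 and the JAKs to stop the signal, was at 95.2 and 103 CPM in WT and at 103 and 75.0 CPM in KO. The spread within KO exceeded the difference between the means, and the log2 fold change was -0.15 (SE 0.17, adjusted p = 0.687, interval of the fold 0.690 to 1.18). Socs3 also lies on chromosome 11, and with chromosome medians removed its value was 0.10. Without KO replicate 2 it was 0.022. Socs2, best known as a brake on growth hormone signalling, was at 37.5 and 27.7 CPM in WT and at 35.2 and 25.3 CPM in KO. The replicate 2 library was the lower one in each genotype, and the log2 fold change was -0.11 (SE 0.22, adjusted p = 0.843, interval of the fold 0.656 to 1.32). Leaving out WT replicate 1 gave 0.13, and leaving out KO replicate 2 gave 0.075. Socs2 lies on chromosome 10 (GRCm38, 95385362 to 95417180, minus strand).

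STAT factors bind the palindrome TTCNNNGAA, which reads the same way on both strands. RefSeq promoter windows (GRCm38.p6), 250 bases before to 50 after a gene's start, were found for 8 of the 9 genes, 10 windows in all. The motif occurred in the window of Socs3 alone, beside 8.30% of all 32851 windows. Socs3 is shown because it is the direct feedback target of STAT3 in this set. The 250 bases before its RefSeq start, on the minus strand at chr11:117969367-117969616, carry the match in capitals. The first base of the match is at -154 from that start. GENCODE M21 places Socs3 at 117966079 to 117970047, minus strand. The printed bases thus lie within the GENCODE gene, downstream of its start, and whether they act as a promoter was not tested.
Socs3: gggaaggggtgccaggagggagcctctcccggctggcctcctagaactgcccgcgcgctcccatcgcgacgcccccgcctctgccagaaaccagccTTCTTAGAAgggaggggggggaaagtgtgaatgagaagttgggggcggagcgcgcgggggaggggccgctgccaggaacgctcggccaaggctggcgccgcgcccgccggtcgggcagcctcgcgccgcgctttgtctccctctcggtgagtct
A match to these letters is a description of the sequence, and the tables hold no measure of STAT3 binding.

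Pim1, a survival kinase and STAT3 target, was at 58.7 and 80.5 CPM in WT and at 86.1 and 86.3 CPM in KO. The KO libraries were the higher ones and close to each other, while the WT libraries differed widely. The log2 fold change was 0.32 (SE 0.18, adjusted p = 0.381, interval of the fold 0.938 to 1.67), and the same-numbered differences were 0.55 and 0.10. Without WT replicate 1 the value was 0.11, and without WT replicate 2 it was 0.56. Pim1 lies on chromosome 17 (GRCm38, 29490753 to 29496112, plus strand). Its exons overlap an antisense gene, Gm26885, by 488 of 3362 bases. The paralogue Pim2, from the list of other STAT3 targets, rose from 22.1 and 12.6 CPM in WT to 74.4 and 59.0 CPM in KO. The log2 fold change of Pim2 was 1.94 (SE 0.26, adjusted p = 0.0116), with both same-numbered differences positive, at 1.73 and 2.18. Pim3, named after its values were seen, was at 75.3 and 81.7 CPM in WT and at 155 and 98.0 CPM in KO (0.69, SE 0.20, adjusted p = 0.111). Pim2 also passed the RNA-seq filter, with 55 and 46 counts in WT and 51 and 40 in KO. Its RNA-seq log2 fold change was 0.16 (edgeR, adjusted p = 0.825). For translational efficiency, footprints relative to RNA-seq counts, Pim2 had 1.81 (edgeR, adjusted p = 0.0293), where 9.26% of 1458 genes were called.

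Levels of different genes were compared in TPM. The deposited lengths include untranslated ends, which ribosomes mostly do not occupy, so transcripts with a large untranslated share read low. In WT the order was Pim1 (63.5 ± 15.01 TPM), Socs3 (57.8 ± 4.17), Lifr (48.8 ± 3.95), Stat3 (38.8 ± 1.42), Socs2 (23.5 ± 4.59), Il6st (19.4 ± 2.18), Jak1 (13.7 ± 1.28), Jak2 (0.410 ± 0.0424) and Lif (0.330 ± 0.113). The WT libraries of Pim1 and Socs3 overlapped, as did those of Socs2 and Il6st and those of Jak2 and Lif. In KO, Il6st stood at 28.7 ± 5.54 TPM, beside Stat3 at 29.5 ± 1.73 TPM and above Socs2 at 21.6 ± 4.43 TPM. The KO libraries of Stat3 and Il6st overlapped, while in WT all Stat3 values were above all Il6st values. Pim1, at 78.1 ± 1.99 TPM, was above Socs3 in both KO libraries.

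Of the other genes of the route, only Pim2 and Tfcp2l1 were called without a replicate term. Both belong to the STAT3 targets, where 14 of 15 were tested, 2 rose, beside 1.83% of all tested genes, and 0 fell, beside 0.617%. The median log2 fold change of that list was 0.18. Tfcp2l1, a transcription factor of the naive state, rose from 69.3 and 70.1 CPM to 133 and 102 CPM (0.76, SE 0.16, adjusted p = 0.0491). Its call rested on KO replicate 1 and WT replicate 2, with an adjusted p of 0.284 and 0.0700 without each, and it was lost in 3 other alternatives. Within the list the footprint values ran from -1.48 to 1.94. In RNA-seq Tfcp2l1 had -0.19 (edgeR, adjusted p = 0.851), and in translational efficiency 0.99 (edgeR, adjusted p = 0.150).

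**Figure D4:**
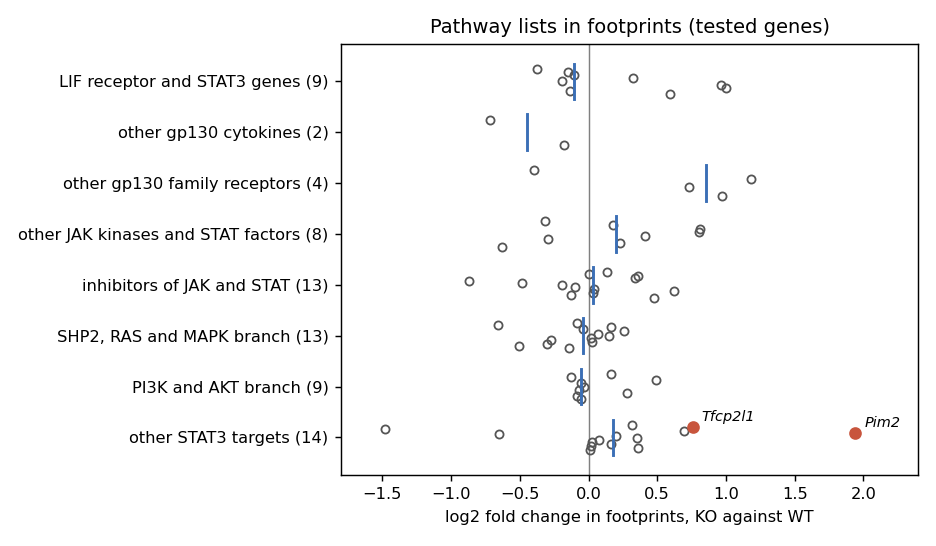
Log2 fold change in footprints for the tested genes of each list, with the number tested in parentheses, filled points for genes with an adjusted p below 0.05 and bars for list medians. Pim2 and Tfcp2l1 are the filled points.

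Other cytokines that signal through gp130 had few footprints, with 2 of 8 tested, 4 at or under 3 counts in every footprint library, and Cntf, a neurotrophic factor, at 0 in all 4. Among the tested ones, Ctf1, which encodes cardiotrophin, was at 1.05 and 1.07 CPM in WT and at 1.18 and 0.174 CPM in KO. Its genotypes overlapped, and the log2 fold change was -0.71 (SE 0.73, adjusted p = 0.647). None of the receptors that pair with gp130 was called, with 4 of 5 tested and a median of 0.85. Cntfr, the ciliary neurotrophic factor receptor, was at 5.45 and 3.69 CPM in WT and 11.3 and 6.88 CPM in KO (0.97, adjusted p = 0.144). Il27ra, a receptor for interleukin 27, was at 0.764 and 1.90 CPM against 2.90 and 2.95 CPM (1.18, adjusted p = 0.212). Il27ra lies on chromosome 8, and with chromosome medians removed its value was 1.40. Over the alternatives the adjusted p of Cntfr ran from 0.000950 to 0.595, below 0.05 with no filter on low counts, with the replicate block and without WT replicate 1. That of Il27ra was below 0.05 with the replicate block.

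Other JAK kinases and STAT factors, 8 of 8 tested, had 0 calls and a median of 0.20. Jak3, the kinase of the common gamma chain receptors, was at 22.6 and 23.0 CPM in WT and at 12.7 and 16.4 CPM in KO (-0.63, SE 0.21, adjusted p = 0.158). It lies on chromosome 8, whose tested genes had a median of -0.22. Stat5b, a factor activated by growth hormone, was at 3.50 and 5.54 CPM against 8.40 and 7.40 CPM (0.81, SE 0.29, adjusted p = 0.175). Stat5b lies on chromosome 11, and with chromosome medians removed its value was 1.07. Of 13 inhibitors, all tested and with a median of 0.03, none was called. Among them the phosphatase gene Ptpn6 had -0.49 (adjusted p = 0.243) and Pias3, which encodes an inhibitor of STAT3, 0.62 (adjusted p = 0.288). Ptpn6 lies on chromosome 6, whose tested genes had a median of -0.38. Its value was -0.11 with chromosome medians removed and -0.20 without WT replicate 2.

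The side branches gave no calls either, by edgeR without a replicate term. The SHP2, RAS and MAPK list had 13 of 13 tested, a median of -0.04 and 2 genes with an unadjusted p below 0.05. One of these was Gab1, the docking protein of SHP2, at 529 and 449 CPM against 378 and 308 CPM (-0.50, SE 0.17, adjusted p = 0.150). Gab1 lies on chromosome 8, and with chromosome medians removed its value was -0.28. The PI3K and AKT list had 9 of 9 tested, a median of -0.05 and none with an unadjusted p below 0.05, with Pik3r1, the regulatory subunit, at 0.49 and Gsk3b, a kinase inhibited by AKT, at 0.28.

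The genes whose footprints over the 4 libraries were most like those of Il6st were Bet1l, Ctsf and Stx4a. Likeness was the root-mean-square distance between log2(CPM + 0.5) values centred on each gene's mean, over 9258 other genes whose mean count was 50 or more. The distances were 0.034, 0.037 and 0.042. Their log2 fold changes were 0.57, 0.67 and 0.57, with adjusted p values of 0.229, 0.151 and 0.238. None of the 3 was called, and the likeness over 4 libraries is a description.

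The RNA-seq tables were too shallow for most of the 9 genes. Only Lifr passed the filter on low counts, with expected counts of 22.9 and 23.2 in WT and 26.4 and 31.4 in KO. Its log2 fold change was 0.62 (SE 0.39, adjusted p = 0.383) in a comparison that called 6.37% of 2087 genes, with an unadjusted p below 0.05 for 23.1%. Translational efficiency, footprints relative to RNA-seq counts, gave -0.78 for Lifr (SE 0.36, 95% interval -1.57 to 0.004, adjusted p = 0.207), where 9.26% of 1458 genes were called and 24.4% had an unadjusted p below 0.05. Lifr was among neither of the 24.4% nor of the 23.1%. The deposited lengths of Lifr differ between the assays, so this ratio sets different estimated transcript mixtures against each other. Socs3 had 7 and 5 RNA-seq counts in WT and 0 in both KO libraries. Its summed WT level was 3.02 times a floor of 3 counts over both KO libraries. That floor covers counting error in KO alone, and the WT counts are few, so 3.02 is not a lower bound on the fold. Socs3 was below the filter and was not tested, and its footprints overlapped between genotypes. The pluripotency markers were also lower in the RNA-seq of both KO libraries, at a summed 250 and 275 CPM against 634 and 655 CPM in WT. Of these 8 markers 4 were tested in RNA-seq and 1, Tdgf1, was called lower by edgeR. Its adjusted p, 0.0490, was just under the threshold, from 20 and 15 counts in WT and 2 and 2 in KO. The summed fibroblast markers were at 23.7 and 22.8 CPM in WT and at 230 and 133 CPM in KO. Most of the KO sums came from Tagln, at 158 and 80.7 CPM from 24 and 14 counts. Of the 14 markers only 1, Tagln, was tested in RNA-seq, and edgeR called it higher (adjusted p = 0.0254). The part of these lists in the Socs3 counts was not tested. Jak2 was at 0 in all 4 RNA-seq libraries, and Il6st, Stat3 and Socs2 had at most 2 counts in any of them.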

How the data were processed

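Per the submitters' processing notes, reads were handled with Bowtie2 2.3.4.3 and RSEM on mm10. For alignment, annotation and strand, no setting is given there or in the labels. The authors deposited RSEM expected counts, TPM, FPKM and gene lengths per library, per the file headers. The deposited FPKM values were not used. The deposited TPM values served for levels between genes and for 1 alternative. The gene and effective length columns were deposited by the authors in bases. Expected counts were rounded to whole numbers for the tests and left unrounded for CPM.

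Each assay was fitted apart with edgeR 4.0.16 (robust quasi-likelihood, TMM factors, filterByExpr), and translational efficiency as the assay by genotype interaction over 8 libraries. Intervals are 95%, from the SE given by the F statistic. Alternatives used DESeq2 1.42.0, limma 3.58.1 on log2(TPM + 1), RLE factors, other filters, a replicate term, Rn45s or chromosome medians removed, and each library left out. The scripts were tested on simulated data. Replicates differed beyond sampling noise (chi-square per degree of freedom 2.96 to 24.1).

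The 9 genes, the lists and the tests were chosen with earlier results of these data known. From each list the text names every called gene, or else the 2 tested genes with the smallest p. Some genes that this rule picks are not reported here. For the gene of the 9 with the smallest p, it names the 3 genes with the most similar profile. Chromosomes came from RefSeq, matching 22527 of 23845 symbols.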

Additional observations from a re-analysis of the deposited data

How the results depend on the processing

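The footprint calls numbered 301 (225 higher, 76 lower), and the 9 genes held 0 of them. With no filter on low counts there were 1110 (706 higher, 404 lower), Il6st among them, so 1 of the 9. With a mean count of at least 50 there were 186 (141 and 45), and with limma on log2(TPM + 1) 72 (49 and 23). DESeq2 called 122 lower, and 38 were lower with chromosome medians removed. In these last 4 settings 0 of the 9 were called. Lif and Jak2 were not tested with a mean count of at least 50 or with limma, being below those filters. Leaving out 1 library gave 223 to 614 calls, 27 to 212 of them lower and 188 to 402 higher, with 0 of the 9 in each. Where not stated above, the cause of a change was not tested.

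A fit with a replicate block called 2960 genes (1566 higher, 1394 lower), or 24% of those tested, and 3 of the 9 genes. These were Il6st (log2 fold change 0.58, adjusted p = 1.74e-05), Stat3 (-0.38, 0.00670) and Pim1 (0.34, 0.0227). Among the other genes named, Cntfr (0.000950), Il27ra (0.0258), Jak3 (0.000983), Stat5b (0.00982), Ptpn6 (0.00340), Pias3 (0.0204) and Gab1 (0.000536) gained a call under the block, with the adjusted p in parentheses. Deviations of same-numbered footprint libraries correlated by 0.485 over 11314 genes, and their names carry a common tag of unstated meaning. No label ties a number to a day or culture, so the fit without the block is the one reported.

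Of the 9 genes, directions turned for Jak1 (0.022) and Socs3 (0.022) without KO replicate 2, for Socs2 without WT replicate 1 (0.13) or KO replicate 2 (0.075), and for Socs3 with chromosome medians removed (0.10). With 1 library left out, Jak1 ran from -0.31 to 0.022, Socs2 from -0.31 to 0.13 and Socs3 from -0.34 to 0.022. None of these passed the test. Ctf1 turned to 0.12 without KO replicate 2 (from -2.47 to 0.12 over the libraries left out). Of 104 values of the 9 genes under alternatives, 95 kept direction and side of the threshold.

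RNA-seq called 133 genes, 75 with DESeq2 and 0 to 279 with 1 library left out. The 0 arose without either KO library, where edgeR gave 292 and 331 genes at an unadjusted p below 0.05. Translational efficiency called 135 genes, and 29 to 120 with 1 library left out. Depth limits Lif and Jak2 in footprints and all of the 9 genes but Lifr in RNA-seq.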
